A study of Mus musculus with 6 samples.

Results

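Il17a, Il17f, Il22, Rora, Ccr6, Il23r and Il1r1 are 7 genes of the interleukin 17 response, taken by their symbols from the 27998 genes listed in every library. CD4+ T cells of the spleen and of vascular tissue had been sorted from C57/B6 mice aged 8 to 12 weeks, in which an abdominal aortic aneurysm had been induced with elastase (treatment PPE in the labels), and tissue was taken 14 days after surgery. Transcripts were captured at their 5' end in droplets and counted as unique molecular identifiers (UMIs), in 3 spleen and 3 vascular libraries. Every library came from treated mice, so each comparison of tissues sets spleen against vascular tissue of diseased animals. The labels give neither pooling of animals nor their sex, and aortas were digested with enzymes at 37 °C for 1 h whereas spleens were ground, so tissue and handling cannot be told apart.

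T helper 17 (Th17) cells are CD4+ T cells that make the cytokines IL-17A, IL-17F and IL-22, which act mostly on epithelial, stromal and endothelial cells and draw in neutrophils. The nuclear receptor RORα, encoded by Rora, takes part in setting their program. IL-1 and IL-23, received through the products of Il1r1 and Il23r, sustain it, and the chemokine receptor CCR6 guides the cells towards its ligand CCL20. Some regulatory T cells, which are marked by the transcription factor Foxp3, also carry CCR6. In aneurysm models of the aorta, IL-17A is studied as a driver of inflammation of the wall.

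The promoters of the members with the core hexamer bound by ROR family receptors are shown here, because Rora encodes such a receptor. Whether RORα acts on any of these genes was not tested. The hexamer searched was AGGTCA on either strand, read as TGACCT on the other, in the 250 bases before each start site in RefSeq (build GRCm38.p6). All 7 members had an entry. Capitals mark the hexamer, and each sequence runs 5' to 3' on the strand of the gene.
Il17a (chr1:20730655-20730904, plus strand): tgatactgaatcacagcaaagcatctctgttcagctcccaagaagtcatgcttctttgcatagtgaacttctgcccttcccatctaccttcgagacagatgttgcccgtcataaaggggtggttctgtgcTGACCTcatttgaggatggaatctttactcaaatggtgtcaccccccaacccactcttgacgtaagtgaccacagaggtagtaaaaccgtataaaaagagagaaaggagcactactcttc
Il17f (chr1:20784271-20784520, minus strand): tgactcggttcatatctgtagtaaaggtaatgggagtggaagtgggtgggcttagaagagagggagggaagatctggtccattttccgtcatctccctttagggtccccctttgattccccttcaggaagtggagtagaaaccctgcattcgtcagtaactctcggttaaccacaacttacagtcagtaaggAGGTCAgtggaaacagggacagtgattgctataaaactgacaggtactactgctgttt
Il23r (chr6:67491856-67492105, minus strand): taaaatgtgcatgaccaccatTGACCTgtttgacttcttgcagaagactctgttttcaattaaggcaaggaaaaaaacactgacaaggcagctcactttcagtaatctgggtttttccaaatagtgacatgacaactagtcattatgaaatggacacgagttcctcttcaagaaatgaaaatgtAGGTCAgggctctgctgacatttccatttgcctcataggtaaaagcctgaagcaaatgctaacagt
Ccr6 (chr17:8235793-8236042, plus strand): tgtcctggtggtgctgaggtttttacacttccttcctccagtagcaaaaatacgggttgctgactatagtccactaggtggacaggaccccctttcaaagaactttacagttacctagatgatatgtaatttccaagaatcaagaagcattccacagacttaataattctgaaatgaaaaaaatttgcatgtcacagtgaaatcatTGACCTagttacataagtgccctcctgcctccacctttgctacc
Il17a held the hexamer once, with its first base at position -120 from the start site, Il17f once at position -58, and Ccr6 once at position -44 of the first of its start sites. Il23r held 2, at positions -66 and -229. The windows of Il22, Rora and Il1r1 did not hold these letters. Of 32851 promoters of the same length, 14.0% held the hexamer, and 15.8% of 27025 genes held it in at least 1 promoter. A match is therefore common and describes only these letters.

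In the GENCODE M21 annotation (GRCm38), all 7 are protein-coding genes, and the counts sum over each gene. Il17a (ENSMUSG00000025929) lies on chromosome 1 from 20730905 to 20734496, and Il17f (ENSMUSG00000041872) lies downstream of it on the opposite strand from 20777146 to 20790617. The RefSeq start of Il17f used for its promoter lies inside that span. Il22 (ENSMUSG00000074695) lies on chromosome 10 from 118204942 to 118210047, near its almost identical copy Iltifb at 118289629 to 118295038, between which reads may have been split. Rora (ENSMUSG00000032238) spans chromosome 9 from 68653786 to 69388246 and overlaps the antisense gene Gm15511. Ccr6 (ENSMUSG00000040899) lies on chromosome 17 from 8236043 to 8257141, Il23r (ENSMUSG00000049093) on chromosome 6 from 67422932 to 67491855, and Il1r1 (ENSMUSG00000026072) on chromosome 1 from 40225080 to 40317257.

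The libraries held 41315 barcodes and 240821626 UMIs. After filters on genes and mitochondrial UMIs and the removal of 2607 scored doublets, 35230 cells passed a gate on Cd3 genes and on markers of other lineages, with 2101 to 8316 T cells per spleen library and 4245 to 7035 per vascular library. Median depth per T cell was 4904 to 5626 UMIs in spleen and 4164 to 4794 in vascular libraries. Cd4 was seen in 62.8% ± 1.09 of vascular T cells without and 59.8% ± 6.43 of those with an Il17a UMI (SD, n = 3). Pairs of libraries shared 18 to 136 barcodes, none of them with the same UMIs and genes. Replicates differed by more than sampling noise. Heat shock genes moved with the tissue: Hspa1a and Hspa1b together stood at 9.23 to 12.4 CPM (counts scaled to an equal library total) in spleen and 2089 to 2277 CPM in vascular libraries, and their part in the results below was not tested. Whether the replicates are separate animals is not given in the labels. The p-values therefore measure the spread of libraries alone, and part of it may be technical.

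All 7 members rose in vascular T cells, where the background was 40.6% of the 11953 genes tested passing in either direction and 22.5% passing as higher. UMIs were summed per library, normalised with TMM and compared by edgeR's quasi-likelihood fit, with calls at an adjusted p of 0.05. Il17f and Il23r, with 55 and 35 UMIs over the spleen libraries, passed a filter on low counts through vascular tissue. They could hardly have been called lower, so the count of 7 is not support. The members were also chosen with earlier results of these data known. A sum over a tissue's cells does not separate more positive cells from more RNA per cell, which is taken up further on.

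Of the cytokines, Il17a gave 6, 81 and 238 UMIs in spleen libraries 1 to 3 and 3231, 1407 and 7155 in vascular libraries 1 to 3. Its highest spleen level, 5.34 CPM in library 3, lay below its lowest vascular level, 62.7 CPM in library 2. A single vascular cell held up to 303 Il17a UMIs, and a positive vascular cell held 17.0 to 30.1 on average. Il17f, the close relative that pairs with IL-17A, gave 2, 4 and 49 UMIs in spleen and 247, 49 and 595 in vascular tissue. Its levels were 0.150, 0.0927 and 1.10 CPM against 7.40, 2.18 and 19.2 CPM, a log2 difference of 4.19 ± 0.89 (SE, adjusted p = 0.00572 by edgeR). Both genes had the same order of vascular libraries, with library 3 highest and library 2 lowest.

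Il22, which acts on epithelial barriers, stood at 4.94, 1.74 and 4.51 CPM in spleen and 11.7, 7.08 and 13.2 CPM in vascular libraries. The groups did not overlap, a separation that was not counted over all genes, and the log2 difference was 1.59 ± 0.36 (adjusted p = 0.00773 by edgeR). It came from few cells: 39, 30 and 48 vascular T cells held an Il22 UMI, and the 10 cells with most Il22 gave 80.8%, 78.0% and 70.2% of its UMIs. The copy Iltifb gave 26, 17 and 39 UMIs in spleen and 8, 12 and 26 in vascular libraries, so it did not show the rise of Il22.

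Rora was the member seen in most cells, in 327, 935 and 957 spleen and 4566, 2174 and 2458 vascular T cells. Its levels were 40.6, 32.4 and 30.7 CPM in spleen and 366, 247 and 221 CPM in vascular libraries, with library 1 highest in each tissue. Its order among vascular libraries was therefore not that of Il17a. The 10 cells with most Rora gave at most 2.70% of its UMIs in a vascular library.

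Ccr6, the receptor of CCL20, stood at 4.19, 5.40 and 5.92 CPM in spleen and 11.2, 18.2 and 20.6 CPM in vascular libraries, without overlap and with a log2 difference of 1.65 ± 0.22 (adjusted p = 0.000633 by edgeR). Of the cytokine receptors, Il23r was the rarer in spleen, with 8, 11 and 16 UMIs against 105, 64 and 130 in vascular libraries. Its levels were 0.599, 0.255 and 0.359 CPM against 3.15, 2.85 and 4.20 CPM, a log2 difference of 3.25 ± 0.30 (adjusted p = 8.61e-05 by edgeR). Il1r1 stood at 1.5, 1.23 and 1.03 CPM in spleen and 3.45, 3.88 and 6.23 CPM in vascular libraries, a log2 difference of 1.91 ± 0.27 (adjusted p = 0.000794 by edgeR). Neither receptor overlapped between the tissues, and such separation, here and for Ccr6, was not counted over all genes.

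**Figure D1:**
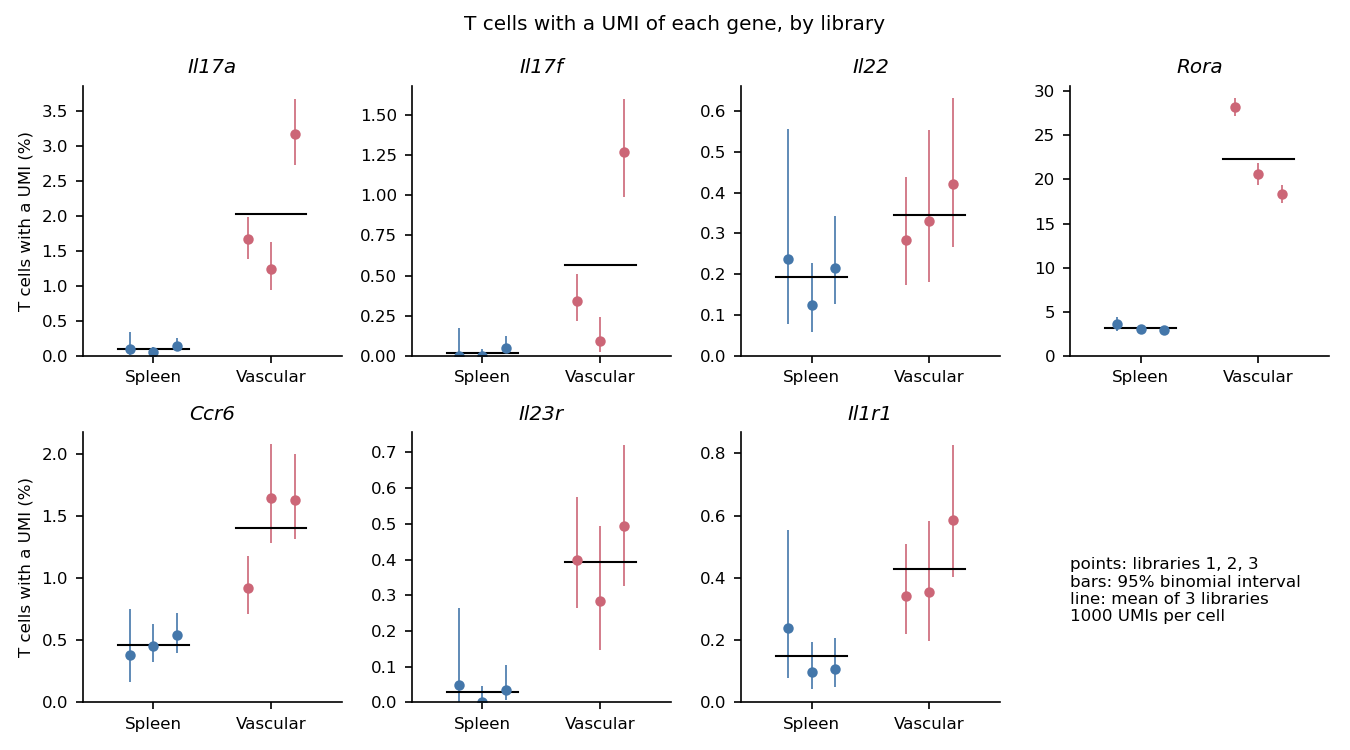
Share of T cells with at least 1 UMI of each gene (percent, y axis) after every cell was thinned to 1000 UMIs, in the 3 spleen and 3 vascular libraries (x axis). Points are libraries 1 to 3 from left to right, bars are exact 95% binomial intervals that cover counting error only, and lines are means. No gene shown has overlapping points, a separation that was not counted over all genes. For all genes but Il17a and Rora, the interval of at least 1 spleen library overlaps that of a vascular one.

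The shares of cells with a UMI, taken at 1000 UMIs per cell so that depth was equal, lay higher in all 3 vascular libraries for all 7 members. The exact two-sided permutation test gave p = 0.1 for each, the smallest that 3 libraries against 3 allow (adjusted p = 0.111 over 21 tests). Such separation was not counted over all genes, so it is not read as particular to the members. In the library sums, 40.6% of the genes tested differed between the tissues. No T cell had fewer than 1000 UMIs. The Il17f share was 0.0160% ± 0.0278 in spleen libraries and 0.567% ± 0.617 in vascular ones (SD, n = 3), and the Ccr6 share was 0.460% ± 0.0802 and 1.40% ± 0.414. The Il22 share went from 0.193% ± 0.0607 to 0.345% ± 0.0700, the Il23r share from 0.0279% ± 0.0248 to 0.392% ± 0.106, and the Il1r1 share from 0.148% ± 0.0777 to 0.427% ± 0.138. The Rora share was 3.17% ± 0.345 in spleen and 22.4% ± 5.18 in vascular tissue. Unthinned, at the depths given above, a Rora UMI was seen in 52.7% ± 10.7 of vascular T cells without Il17a.

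Another cell type of the same libraries was taken as the background, which includes free RNA. Among 1128 vascular plasmacytoid dendritic cells, with a median of 8194 UMIs, 2 held an Il17a UMI, 1 an Il22 UMI, 2 an Il1r1 UMI and none an Il17f or Il23r UMI. Rora was seen in 4.88% of them unthinned and in 0.355% at 1000 UMIs. Ccr6 was seen in 2.84% of them unthinned and in 0.621% at 1000 UMIs, and it was the member closest to this background. At 1000 UMIs per cell, the mean vascular T cell shares of all 7 members lay above those of these cells. In Foxp3- T cells the Ccr6 share was 0.885% ± 0.238 (SD, n = 3), and its lowest library, at 0.614%, did not lie above the background.

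Foxp3- T cells, those without a Foxp3 UMI, made up most T cells, and all 7 members rose there too in vascular tissue (background 39.8% in either direction, 21.4% higher). Il17f and Il23r, with 54 and 31 spleen UMIs in Foxp3- cells, again passed the filter on low counts through vascular tissue. The count of 7 is therefore not support here either. Without doublet removal Il22 missed the threshold there, at 1.11 (adjusted p = 0.073 by edgeR). Foxp3+ T cells numbered 198, 774 and 725 in spleen and 516, 397 and 524 in vascular libraries. In these cells 6 of the 6 members tested rose, against a background of 25.0% in either direction and 14.6% higher. Il17a, Il22, Il23r and Il1r1 held only 1, 6, 4 and 6 UMIs over the spleen libraries. They passed the filter on low counts through vascular tissue and could hardly have been called lower, so the count of 6 is not support. Il17f did not pass this filter in Foxp3+ cells.

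In Foxp3+ cells, Il17a gave 0, 1 and 0 UMIs in spleen and 274, 139 and 361 in vascular libraries, a ratio of 749 per UMI sequenced with a 95% counting interval of 134 to 29629. That interval takes UMIs as independent and leaves out the spread of cells and libraries. The vascular UMIs lay in 17, 15 and 31 cells. Il17f gave 0, 1 and 0 against 4, 0 and 34 UMIs, so that 1 vascular library held nearly all of it and another held none. Il22 gave 0, 5 and 1 UMIs against 88, 22 and 19, with the vascular levels spread from 4.59 to 26.7 CPM. Its log2 difference was 4.32 ± 0.91 (adjusted p = 0.00597 by edgeR).

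Rora stood at 64.3, 60.9 and 53.6 CPM in spleen Foxp3+ cells and 457, 349 and 315 CPM in vascular ones (log2 difference 2.66 ± 0.15, adjusted p = 1.21e-06 by edgeR). In Foxp3- cells it stood at 37.6, 29.4 and 28.5 CPM against 350, 233 and 208 CPM (3.06 ± 0.20, adjusted p = 1.6e-05 by edgeR). The rise was smaller in Foxp3+ cells, by -0.45 ± 0.10 on the log2 scale in the test of the difference itself (adjusted p = 0.0102 by edgeR), and the adjusted p was 0.126 without spleen replicate 2. Rora was the 1 member called in that test, where the background was 8.61% of genes. Il1r1 (1.71 ± 0.58, adjusted p = 0.0851), Il22 (2.69 ± 1.07, adjusted p = 0.149) and Il17a (4.05 ± 1.67, adjusted p = 0.162) did not pass by edgeR, with wide errors. Without vascular replicate 3, Il17a and Il22 passed this test, with adjusted p of 0.000567 and 0.00566.

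Ccr6 stood at 11.4, 18.1 and 20.4 CPM in spleen Foxp3+ cells and 44.2, 81.0 and 58.7 CPM in vascular ones (1.79 ± 0.24, adjusted p = 0.000332 by edgeR). Il23r gave 4 UMIs in all in spleen Foxp3+ cells and 25, 27 and 39 in vascular ones (4.32 ± 0.46, adjusted p = 8.79e-05 by edgeR). Il1r1 gave 6 UMIs in all in spleen and 20, 19 and 32 in vascular Foxp3+ cells (3.42 ± 0.44, adjusted p = 0.000266 by edgeR). At 1000 UMIs per cell, the shares with Il17f in Foxp3+ cells (exact permutation p = 1) and with Il1r1 in Foxp3- cells (exact permutation p = 0.2) overlapped between the tissues.

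**Figure D2:**
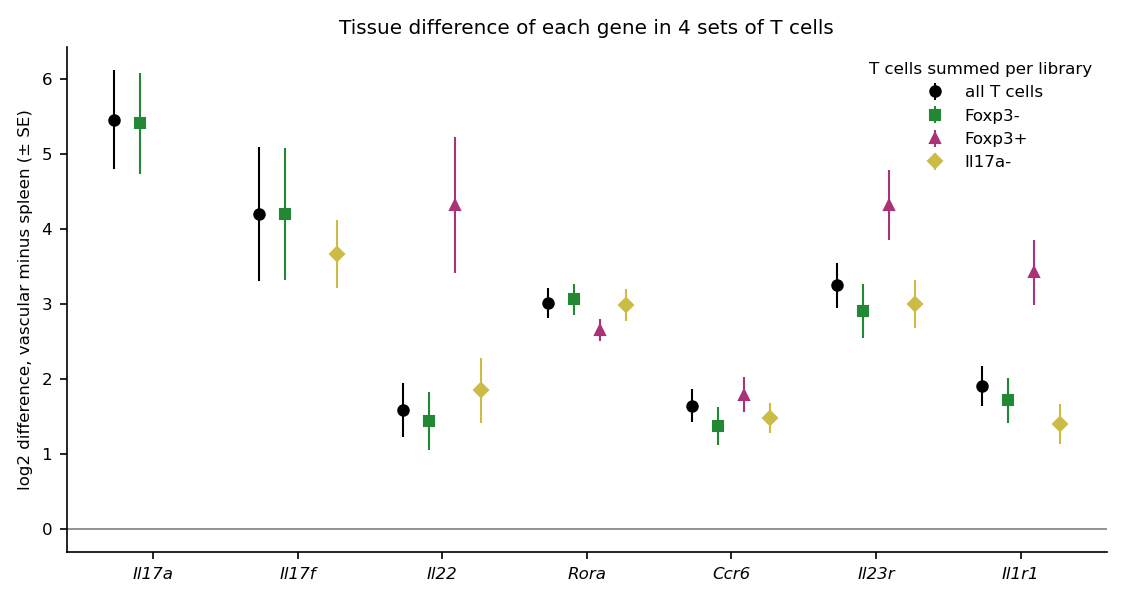
Log2 difference, vascular minus spleen (y axis), of each gene (x axis) in all T cells, Foxp3- cells, Foxp3+ cells and cells without an Il17a UMI; points are edgeR estimates and bars are SE over 3 and 3 libraries. Every point drawn lies above 0; Il17a and Il17f are not drawn in Foxp3+ cells, where spleen held 1 UMI of each, and Il17a is not drawn in cells chosen for lacking it.

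Within vascular tissue, Foxp3+ and Foxp3- sums of the same library were compared with the library as a block, and 5 of 7 members differed (background 45.8%). The share is read against that high background. The cytokines Il17a and Il17f were lower in Foxp3+ cells, the receptors Ccr6 and Il23r and the factor Rora higher. Il17a stood at 77.8, 45.8 and 81.4 CPM in Foxp3+ cells and 104, 70.0 and 276 CPM in Foxp3- cells, lower in 3 of 3 libraries (log2 difference -1.02 ± 0.19, adjusted p = 0.000958 by edgeR). With DESeq2 the adjusted p for Il17a was 0.0679. Il17f stood at 1.14, 0 and 7.67 CPM against 8.57, 2.71 and 22.8 CPM (-1.93 ± 0.27, adjusted p = 0.000115 by edgeR), and its adjusted p was 0.0565 without doublet removal.

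Ccr6 had the largest such difference of the members, at 41.5, 75.4 and 54.8 CPM in Foxp3+ cells and 8.08, 9.89 and 16.0 CPM in Foxp3- cells (2.31 ± 0.17, adjusted p = 4.65e-07 by edgeR). Il23r followed at 7.10, 8.89 and 8.79 against 2.82, 2.04 and 3.69 CPM (1.51 ± 0.23, adjusted p = 0.000202 by edgeR). Rora was higher in 3 of 3 libraries by a small amount, 349 ± 70.1 against 285 ± 81.5 CPM (SD, n = 3; 0.31 ± 0.06, adjusted p = 0.000794 by edgeR). Il1r1 (0.49 ± 0.22, adjusted p = 0.0879 by edgeR) did not pass, and passed without vascular replicate 3 (adjusted p = 0.0441).

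Il22 did not pass either (0.02 ± 0.40, adjusted p = 0.977 by edgeR), and its libraries went different ways. It was 25.0 CPM in Foxp3+ and 10.7 CPM in Foxp3- cells of library 1, but 4.28 and 15.9 CPM in library 3. Without vascular replicate 1 the difference was -1.12 (adjusted p = 0.0167), and without replicate 3 it was 0.80 (adjusted p = 0.00359). In spleen, 3 of the 3 members tested differed between Foxp3+ and Foxp3- cells (background 31.9%). Il17a, Il17f, Il23r and Il1r1 did not pass the filter on low counts there. Untested, Il1r1 stood at 0.451 ± 0.393 CPM in Foxp3+ and 1.43 ± 0.356 CPM in Foxp3- cells (SD, n = 3). Il22, with 6 UMIs in spleen Foxp3+ cells, passed that filter through Foxp3- cells. Il22 was lower in Foxp3+ cells (-2.71 ± 0.57, adjusted p = 0.00277 by edgeR), and Rora (0.75 ± 0.09, adjusted p = 2.01e-05) and Ccr6 (1.92 ± 0.18, adjusted p = 2.94e-06) were higher. Of 325 Il17a UMIs in spleen T cells, 1 lay in a Foxp3+ cell.

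Cells with both an Il17a and a Foxp3 UMI numbered 0, 1 and 0 in spleen and 17, 15 and 31 in vascular libraries. They were 3.29%, 3.78% and 5.92% of vascular Foxp3+ cells, against 2.19%, 1.77% and 4.20% with Il17a among Foxp3- cells of the same libraries. At 1000 UMIs per cell, where both kinds were read at equal depth, the shares were 2.08% ± 0.563 and 2.02% ± 1.07 (SD, n = 3), so the higher unthinned share did not hold. These double-positive cells were deep, with median UMIs of 6478, 6794 and 7280 against 4952.5, 5518 and 5735 in all Foxp3+ cells, and the part that remaining doublets play was not tested. They held little Il17a, with medians of 4, 3 and 3 UMIs against 10, 6 and 14 in Foxp3- cells with Il17a. Cells with 2 UMIs or more of each gene numbered 8, 3 and 15.

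The next question was which members keep to the cells with Il17a and which are broad among vascular cells. There were 160, 83 and 238 vascular T cells with an Il17a UMI (Il17a+), 481 of 16733, or 2.86% ± 1.31 per library. Their median depth of 4203 to 4895 UMIs was close to the 4164 to 4784 of the other T cells. Spleen held 31 such cells in all, too few per library for a test. Il17a itself chose these cells, so its own difference is not a result.

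All 6 other members were higher in Il17a+ than in Il17a- vascular cells in 3 of 3 libraries and passed the test with the library as a block, against a background of 12.3% of 10916 genes in either direction and 6.79% higher. Il17f had the largest difference of all 741 genes called higher. It passed the filter on low counts through the Il17a+ cells and could hardly have been called lower. Its place among the 6 and in the ranking is therefore not support. Il17f stood at 269, 43.6 and 346 CPM in Il17a+ cells and 0.793, 1.29 and 1.68 CPM in Il17a- cells (7.48 ± 0.28, adjusted p = 2.32e-15 by edgeR). Il22 stood at 36.3, 133 and 110 CPM against 11.4, 4.38 and 8.45 CPM (3.47 ± 0.32, adjusted p = 2.48e-08 by edgeR).

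Il1r1 was even among libraries in the Il17a+ cells, at 52.0, 47.5 and 56.2 CPM against 2.28, 3.0 and 3.72 CPM (4.12 ± 0.24, adjusted p = 8.28e-12 by edgeR). Il23r stood at 39.9, 19.8 and 34.1 CPM against 2.28, 2.57 and 2.72 CPM (3.66 ± 0.29, adjusted p = 2.31e-09 by edgeR), and Ccr6 at 85.9, 105 and 125 against 9.64, 16.9 and 15.7 CPM (2.94 ± 0.14, adjusted p = 3.27e-13 by edgeR). Rora had the smallest difference of the members, at 661, 449 and 539 CPM against 370, 253 and 215 CPM (1.01 ± 0.10, adjusted p = 7.58e-08 by edgeR). The Il17a+ and Il17a- levels of no member overlapped, a separation that was not counted over all genes.

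**Figure D3:**
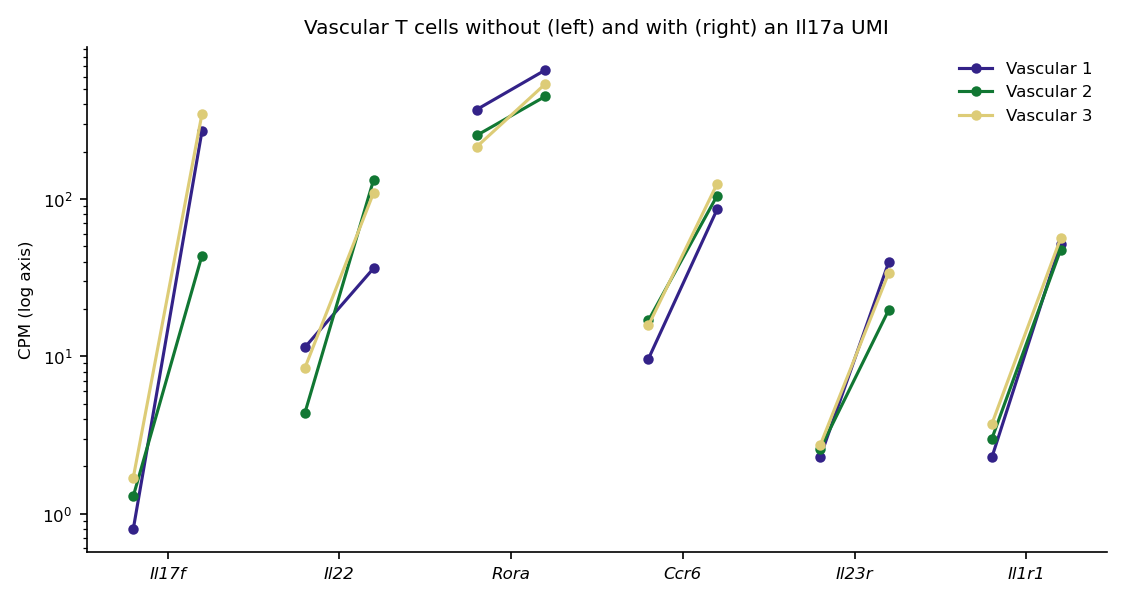
Level of the other 6 genes (CPM, logarithmic y axis) in vascular T cells without (left end of each line) and with (right end) an Il17a UMI, 1 line per library. All lines rise, those of Il17f most and those of Rora least.

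The members differed in how much of their RNA lay in the Il17a+ cells, with libraries that did not all have the same order. Of the vascular UMIs of Il17f, 88.9% lay in the 481 Il17a+ cells, and 74.6% of the 197 cells with Il17f also held Il17a. Library 2, with 49 Il17f UMIs, was an exception, as 44.9% of its UMIs lay in Il17a+ cells against 92.1% in library 3. For the receptors Il1r1 and Il23r the share of UMIs was 39.5% and 32.4%, and for Ccr6 22.7%, with library 2 lowest and library 3 highest for each. For Il22 it was 28.3% pooled, but 7.69%, 42.1% and 42.4% in libraries 1 to 3, with 42.4% when library 1 and 17.7% when library 3 was left out. In library 2 Il22 lay above Il1r1 (27.6%), Il23r (15.6%) and Ccr6 (13.0%), close to Il17f. These 4 genes were enriched in the Il17a+ cells, but most of their UMIs lay outside them. For Rora the share was 6.61% pooled, with 4.47%, 4.09% and 12.5% in libraries 1 to 3 and 4.35% without library 3, and 8785 of its 9198 vascular cells held no Il17a UMI. Over all genes, the Il17a+ cells held 2.44%, 2.17% and 4.87% of the UMIs of libraries 1 to 3, against which these shares are read. The receptors and Rora had that same order of libraries, so the order alone is no difference in confinement.

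A missing UMI does not show that a cell lacks Il17a. At 1000 UMIs per cell, 69.9% ± 5.23 of the Il17a+ cells still held an Il17a UMI. Read from the other side, 26.0% ± 14.2 of Il17a+ cells held Il17f, 23.0% ± 3.74 held Il1r1, 13.3% ± 4.23 held Il23r, 7.75% ± 1.64 held Il22, 32.1% ± 7.04 held Ccr6 and 84.9% ± 4.98 held Rora (SD, n = 3). Among Il17a- cells the same shares were 0.316%, 1.25%, 0.939%, 0.516%, 4.13% and 52.7%.

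The shares followed the number of Il17a UMIs in the cell for some members more than for others. Of vascular cells with 0, 1, 2 to 9 and 10 or more Il17a UMIs (16252, 98, 148 and 235 cells), Il17f was seen in 0.316%, 3.56%, 15.2% and 41.7% as means of the libraries, though library 2 had none at 1 Il17a UMI. Il1r1 was seen in 1.25%, 11.6%, 22.2% and 27.1%, and Ccr6 in 4.13%, 17.8%, 34.7% and 34.9%. The near-equal upper pair of Ccr6 hid libraries that went different ways, from 29.2% to 27.5%, 38.9% to 26.9% and 35.9% to 50.4% in libraries 1 to 3, and the Il1r1 share of library 2 went from 25.0% to 19.2%. Rora was seen in 52.7%, 75.8%, 83.6% and 90.1%. Foxp3 went another way, at 8.63%, 20.7%, 19.2% and 7.16%, so that it was seen most often in cells with few Il17a UMIs. Ifng, the cytokine of Th1 cells, was seen in 28.8%, 13.7%, 7.87% and 8.46%.

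**Figure D4:**
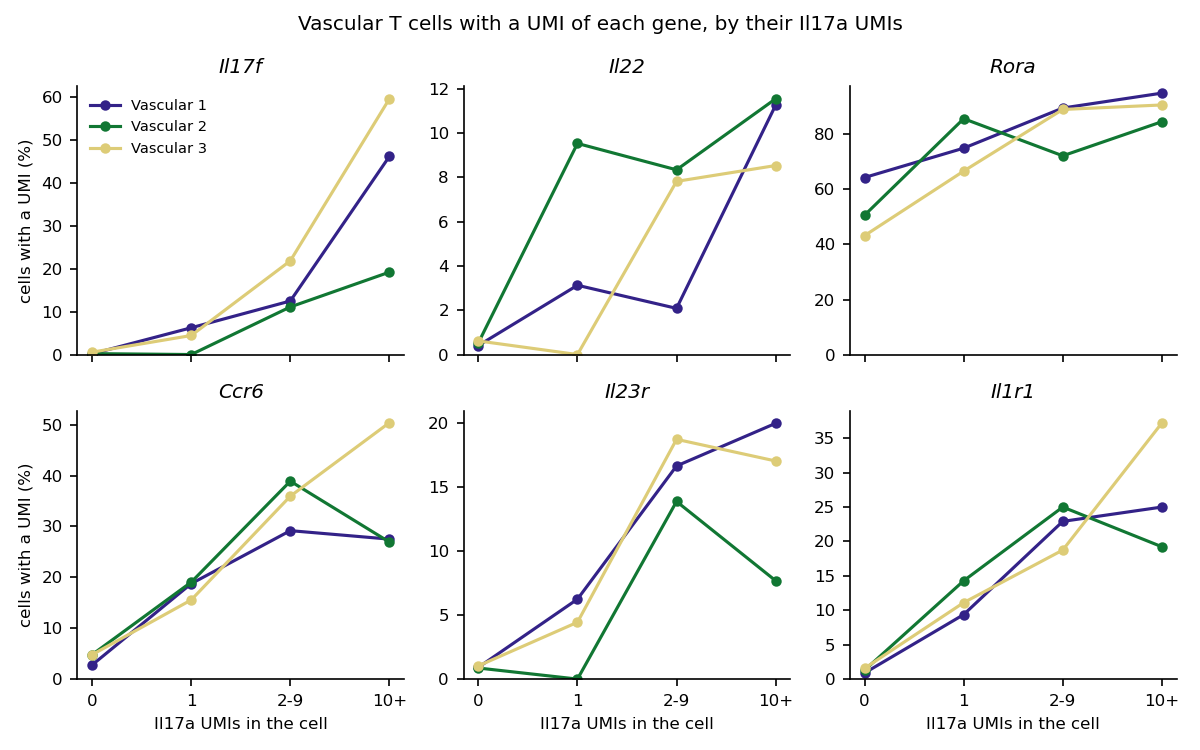
Share of vascular T cells with a UMI of each gene (percent, y axis) among cells with 0, 1, 2 to 9 or 10 and more Il17a UMIs (x axis), 1 line per library, without thinning. Mean Il17f shares climb from 0.316% to 41.7% and mean Rora shares from 52.7% to 90.1%.

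The members were also seen together in the same cells. Over all vascular T cells, Il17a+ cells included, of the 222 vascular cells with Il23r, 49.4% ± 12.7 held Ccr6 against 4.38% of cells without Il23r, 22.2% ± 4.90 held Il1r1 against 1.63%, and 28.5% ± 11.9 held Il17a against 2.5% (SD, n = 3). Of the 117 cells with Il22, 38.0% ± 14.4 held Ccr6 and 29.4% ± 3.49 held Il17a. Rora was seen in 81.7% to 94.7% of the cells with any other member, against 52.1% to 53.5% of the cells without that member. These are shares of detected cells without thinning, given with no test.

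Without the Il17a+ cells, 6 of the 6 remaining members still rose from spleen to vascular tissue (background 39.6% in either direction, 22.1% higher). Il17f went from 0.150, 0.0695 and 0.0900 CPM to 0.768, 1.23 and 1.6 CPM (3.67 ± 0.45, adjusted p = 0.000416 by edgeR), on 9 and 99 UMIs. Il17f and Il23r, with 9 and 29 spleen UMIs, passed the filter on low counts through vascular tissue and could hardly have been called lower. The count of 6 is therefore not support. Rora (2.99 ± 0.21, adjusted p = 2.79e-05), Il23r (3.0 ± 0.31, adjusted p = 0.000181), Ccr6 (1.48 ± 0.20, adjusted p = 0.000735), Il1r1 (1.40 ± 0.26, adjusted p = 0.00332) and Il22 (1.85 ± 0.43, adjusted p = 0.00934) passed by edgeR as well. The Il22 libraries overlapped here, with 4.27 CPM in spleen library 1 and 4.19 CPM in vascular library 2.

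Among 4 exclusive classes of vascular T cells, Rora was highest in Il17a+ cells, at 557 ± 107 CPM (SD, n = 3). Foxp3+ cells without Il17a followed at 350.1 ± 70.3 CPM, then cells with Ifng and neither Il17a nor Foxp3 at 331 ± 48.3 CPM, and the remaining cells at 253 ± 93.9 CPM. These last 3 classes overlapped across libraries, while the Il17a+ class, from 456 to 669 CPM, lay above them. In spleen the order began with the Ifng+ class at 86.3 ± 17.3 CPM, then Foxp3+ cells at 55.6 ± 4.52 and the remaining cells at 27.7 ± 4.10 CPM. No neighbours in that order overlapped. Separation of classes, here and in vascular tissue, was not counted over all genes.

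Ccr6 had another order in vascular tissue: Il17a+ cells at 107 ± 19.6 CPM, Foxp3+ cells without Il17a at 56.5 ± 16.7, remaining cells at 10.5 ± 1.0 and Ifng+ cells at 2.59 ± 1.67 CPM. Il23r had the same order, from 31.7 ± 10.5 CPM in Il17a+ cells to 8.13 ± 0.891 in Foxp3+ cells without Il17a, 2.07 ± 0.177 in remaining and 1.04 ± 0.131 CPM in Ifng+ cells. No neighbours in either order overlapped, which was not counted over all genes. Il1r1 went from 52.6 ± 4.27 CPM in Il17a+ cells to 4.86 ± 0.830 in Foxp3+ cells without Il17a and 3.55 ± 0.929 CPM in remaining cells, of which the last pair overlapped, and was 1.20 ± 0.249 CPM in Ifng+ cells.

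**Figure D5:**
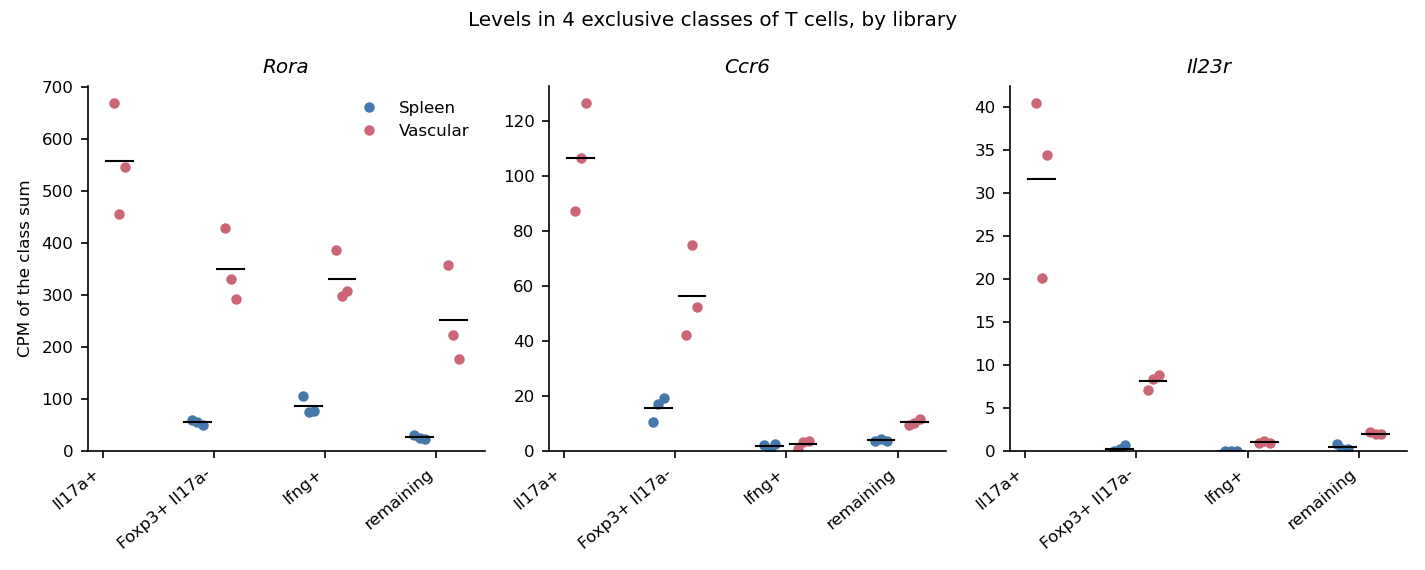
Levels of Rora, Ccr6 and Il23r (CPM of the class sum, y axis) in 4 exclusive classes of T cells (x axis) in spleen (blue) and vascular (red) libraries; points are libraries and lines are means. The Il17a+ class is not drawn for spleen, with 31 cells in 3 libraries; vascular Rora lies far above spleen in each of the other classes, while Ccr6 of Ifng+ cells overlaps.

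The rise of Rora was present among Ifng+ cells too. There it went from 110, 77.7 and 79.2 CPM in spleen to 400, 307 and 318 CPM in vascular tissue (1.98 ± 0.14, adjusted p = 1.58e-06 by edgeR), and it was the 1 member called of the 2 tested there (background 26.8% in either direction). Ccr6 in these cells did not pass (0.29 ± 0.72, adjusted p = 0.801 by edgeR). Il23r gave no UMI in spleen and 24 in vascular Ifng+ cells, which is at least 2.73-fold higher with a floor of 3 counts over the group.

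The pathway around the members was read from a list of 48 other genes. Over all T cells 46 were tested, 32 rose and 7 fell in vascular tissue, with a median log2 difference of 1.20 against 0.00889 for all genes tested. Over all genes 40.6% passed in either direction and 22.5% as higher, which is given beside these counts and those by role. The list was chosen with earlier results of these data known, so its counts and median are a description and not support. Of 11 transcription factor genes, 10 rose, among them the AP-1 gene Fosl2 (3.99 ± 0.32) and Nfkbiz (1.66 ± 0.26). Of 8 genes that restrain the program, 6 rose and 2 fell. Il1rn, the secreted antagonist of IL-1, rose by 4.11 ± 0.33 and the decoy receptor Il1r2 by 3.31 ± 0.17, while Bach2 fell (-0.92 ± 0.16). Of 10 receptors tested 4 rose and 3 fell. Il17re, a receptor subunit for IL-17C, rose by 2.72 ± 0.21 and Il18r1 by 2.11 ± 0.17, whereas Il6ra (-1.03 ± 0.21) and Il6st (-0.87 ± 0.16), the chains of the IL-6 receptor, fell. Of 5 cytokines and chemokines tested, Ccl20 (4.32 ± 0.89, on 8 and 143 UMIs) and Csf2 (3.35 ± 0.48) rose and Ltb fell (-0.55 ± 0.12). All of these had an edgeR adjusted p of 0.0081 or lower.

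Between Il17a+ and Il17a- vascular cells, 47 of the 48 genes were tested, 24 were higher and 5 lower, with a median of 0.59 against -0.019 for all genes, of which 12.3% passed in either direction and 6.79% as higher. These counts too describe a list chosen with earlier results known. Il17re stood at 88.0 ± 18.4 against 4.33 ± 0.677 CPM (4.37 ± 0.21; SD, n = 3). Maf (1.06 ± 0.09), Ahr (1.31 ± 0.18) and Irf4 (1.44 ± 0.17) were higher, while Stat3 (-0.07 ± 0.10), Batf (-0.10 ± 0.10) and Hif1a (0.15 ± 0.09) did not pass. Of 12 other genes associated with Th17 cells, 11 were higher, led by Tmem176a (3.70 ± 0.15), Tmem176b (3.58 ± 0.13) and Aqp3 (2.99 ± 0.12), and Cd9 was lower (-2.11 ± 0.22). Socs3, which restrains signalling by IL-6, rose from spleen to vascular tissue (1.45 ± 0.12) but was lower in Il17a+ cells (-1.08 ± 0.12). Il6ra (-1.46 ± 0.20) and Il6st (-1.60 ± 0.29) were lower there as well. Each of the genes named here as higher or lower had an edgeR adjusted p of 0.00036 or lower.

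The genes most like Il17a, by the size of their difference between Il17a+ and Il17a- cells, were Gm9961 (5.82 ± 0.74), Ccl20 (5.80 ± 0.41), Blk (5.36 ± 0.73), Hoxd1, Ppp1r14c (4.79 ± 0.32), Cpe (4.76 ± 0.24), Pxdc1, 4833412C05Rik, Epdr1, Ablim3, Il17re and B3galt2. Gm9961, Blk, Hoxd1, 4833412C05Rik and Epdr1 lay near the floor, with means of 4.99 to 6.25 CPM in Il17a+ and 0.0992 to 0.265 CPM in Il17a- cells. Their places rest on few UMIs, and Hoxd1 varied most, at 4.99 ± 5.97 CPM in Il17a+ cells (SD, n = 3). These genes, and also Ccl20, Ablim3 and B3galt2, had means of at most 0.562 CPM in Il17a- cells. They passed the filter on low counts through the Il17a+ cells and could hardly have been called lower, so their places are a description. Ccl20, the ligand of CCR6, stood at 31.1 ± 19.0 against 0.522 ± 0.478 CPM, and Cpe, a carboxypeptidase of the secretory pathway, at 79.8 ± 20.1 against 2.97 ± 0.684 CPM (SD, n = 3). Blk, a kinase found in B cells and in gamma delta T cells that make IL-17, belongs to the list of 5 gamma delta or innate-like T cell markers. That list summed to 45.6 to 60.2 CPM in Il17a+ and 3.87 to 6.55 CPM in Il17a- vascular cells. Of its genes, 5830411N06Rik was seen in 8.03% ± 2.81 of Il17a+ and 1.23% ± 0.434 of Il17a- cells, Blk in 1.85% and 0.0400%, Sox13 in 0.140% and none, and Zbtb16 in 0.348% and 0.177%. The part of such cells in the Il17a+ results was not tested, and constant regions of the gamma delta receptor were not used here. The list of 7 B cell markers summed to 2.05 to 4.02 CPM in Il17a+ and 2.37 to 5.11 CPM in Il17a- vascular cells. Of its genes, Cd79b was seen in 1.24% of Il17a+ and 1.03% of Il17a- cells, and the other 6 were at 0 in Il17a+ cells and in at most 0.377% of Il17a- cells.

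By correlation with Rora over the 12 vascular sums of 4 classes in 3 libraries, the most similar of 5017 genes were Mapkapk3 (r = 0.988), Myl12a (r = 0.985), Icos (r = 0.971), Diaph1 (r = 0.967), Cdkn1a, Ubl3, Slc16a6 and Prkar1a. These sums share libraries. Over the 6 library sums of all T cells, where the tissue sets most of the variation, they were Itpr1, Tob1, Eif4e3, Cks2, Coq10b, Azin1, Skil and Atp2b1, each with r of 0.999. The lists had no gene in common.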

How the data were processed

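The deposited matrices hold whole-number UMI counts without normalization, 1 value for each gene and barcode, per the file headers. Per the submitters' processing notes, the tools were FastQC 0.11.8, STAR 2.5.1b, Cell Ranger 2.2.0 and Seurat, with mm10. Cells were kept from 300 genes upwards and up to 10% mitochondrial UMIs. Each library's doublets were scored against simulated ones (2 per cell), and the top 0.8% for each 1000 barcodes were removed. T cells had at least 2 UMIs of Cd3d, Cd3e and Cd3g together and fewer than 2 genes of every other lineage list. Foxp3+ and Il17a+ mean at least 1 UMI. One class of cells and some single genes are not reported here; the cells of that class were counted with the remaining ones, a change made after the data were seen. Classes with under 20 cells in a library were left out of its sum.

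Sums per library were tested with edgeR 4.0.16 (TMM, filterByExpr, quasi-likelihood, Benjamini-Hochberg at 0.05 over all genes tested, two-sided) in R 4.3.3, with tissue as the only term or, within a tissue, with the library as a block. CPM values use TMM-scaled totals, and those of a gene differ slightly between comparisons. SE is the log2 difference over the root of the F statistic. The tests recovered known changes in counts simulated with the same dispersion for every gene. That dispersion was not set to the spread of the members, so the simulation does not vouch for their tests. Shares were compared by exact permutation over libraries with scipy 1.17.1, and intervals are Clopper-Pearson at 95%. Equal replicate numbers did not deviate together (r = 0.0300, -0.105 and 0.102). The alternatives were DESeq2 1.42.0, RLE factors, no filter, no doublet removal, the Cd3 rule alone, positivity from 2 UMIs, other depths, the replicate block and each library left out. The named genes were the 7 members, up to 5 called pathway genes per role with the largest change, the 12 most like Il17a and the 8 most like Rora. The members and lists were chosen with earlier results of these data known.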

Additional observations from a re-analysis of the deposited data

Results flagged for a closer look

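Rora rose less from spleen to vascular tissue in Foxp3+ than in Foxp3- T cells, a difference of -0.455 on the log2 scale that passed a test of its own and was lost without spleen replicate 2.

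UMIs of Rora and Ccr6 were also counted in cells gated as other types. Plasmacytoid dendritic cells held 6 Rora and 5 Ccr6 UMIs in spleen (150 cells) and 58 Rora and 35 Ccr6 UMIs in vascular tissue (1128 cells). B cells, which are known to carry CCR6, held 60 Ccr6 UMIs in spleen (197 cells) and 17 in vascular tissue (64 cells), and 20.3% of them had a Ccr6 UMI in each tissue. These counts pool 3 libraries each and lie above the 3 counts that a count of 0 allows. The plasmacytoid dendritic cells also serve as the background of the T cell shares, and whether their Rora and Ccr6 UMIs are free RNA was not tested.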

How the results depend on the processing

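By the fitted log2 difference, every member tested kept its direction from spleen to vascular tissue in all T cells, Foxp3- cells and Foxp3+ cells under the alternatives that gave a value, and Il22 in Foxp3- cells alone lost the threshold (adjusted p = 0.073 without doublet removal, edgeR). The number of members called was 7 in all T cells and 6 in the Il17a+ comparison with each library left out. Members called among Ifng+ cells were 3 with no filter on low counts, 2 without doublet removal and 1 to 2 with a library left out; in the test of the difference between Foxp3+ and Foxp3- cells, 4 with no filter, 2 without doublet removal and 0 to 3 with a library left out.

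Genes called with a library left out ran from 3222 to 5811 in all T cells, 2927 to 5394 in Foxp3-, 1514 to 2980 in Foxp3+, 3088 to 5646 in Il17a- and 1578 to 3011 in Ifng+ cells, 1622 to 3930 between Foxp3+ and Foxp3- cells in spleen and 490 to 1133 for the difference between tissues. DESeq2 called 3271 and 2063 genes between Foxp3+ and Foxp3- cells in vascular tissue and spleen (edgeR 5077 and 3329), 537 for their difference (949) and 822 for Il17a+ cells (1340). The cause was not tested.

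Signs turned only where edgeR's main call had not passed. Ccr6 in Ifng+ cells ran from -0.25 to 1.10 with a library left out, and was below 0 without spleen replicate 2, vascular replicate 2 or vascular replicate 3. Il22 between Foxp3+ and Foxp3- vascular cells was -0.20 with DESeq2, -0.029 with no filter, -0.20 without doublet removal, -0.12 with the Cd3 rule alone, -2.08 with positivity from 2 UMIs (adjusted p = 6.36e-06) and -1.12 to 0.80 with a library left out. The difference of tissue effects for Il17f was -0.65 with DESeq2 and -2.51 to 4.74 with a library left out. The Il17f share in Foxp3+ cells had a tissue difference of 0 to 0.191 percentage points with a library left out. With the replicate block, 4682 genes were called in all T cells and 7 members, and the block changed no call of a member in any comparison of tissues. Low UMI counts limit Il17f, Il23r and Il1r1 in spleen.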
